A study of Mus musculus with 4 samples.

Results

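Trp53, which encodes the transcription factor p53, was followed on mouse expression arrays together with 9 genes of its circuit: Mdm2 and Mdm4, Bax, Bbc3 and Pmaip1, and Ccng1, Sesn2, Trp53inp1 and Zmat3. The members were chosen by name, with earlier results of these data known. Every probe that was not a control and whose gene name in the scanner files was one of these 10 symbols belonged to the set, and the brightest probe over the 4 arrays gave the value of its gene. All 10 genes were on the array, with 12 of its 39429 probes and 10 of its 30986 gene or transcript names. Mdm4 and Trp53inp1 had 2 probes each and the other genes had 1.

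The RNA came from Her2 positive breast cancer cells cultured from mammary tumours. The tumours arose in MMTV-Neu mice, whose transgene expresses the Neu oncogene (Erbb2) from a mammary tumour virus promoter. Of the 4 arrays, 2 were labelled Pak1-/- (cells from Pak1 knockout mice) and 2 Pak1+/+ (cells from Pak1 wild-type mice), with cells of 2 tumours per genotype. Both groups carried the Neu transgene and were treated alike: the cultures were grown in low calcium medium with horse serum, kept without serum for 3 h and then given EGF for 15 min. The study asked which genes differ when the p21-activated kinase Pak1 is missing. No culture without EGF and none treated with a DNA damaging agent was part of these arrays. The values thus describe p53 genes in tumour cells kept without serum and then given EGF. Strain, age and the mutation status of Trp53 in the tumours were not given in the sources used here.

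p53 is kept low in most cells because Mdm2 ubiquitinates it and, with its relative Mdm4, blocks its activity. Stress stabilises the protein, which then binds DNA and switches on genes for arrest, repair, metabolism and death, Mdm2 among them, so that the circuit limits itself. Because p53 is controlled mainly as a protein, the abundance of its mRNA and that of its target mRNAs are separate measurements.

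The median spot intensity was 322 to 331 on the 4 arrays over a local background of 39.0 to 42.0, and 62.2% to 70.4% of the probes were well above background. The correlation of log2 intensities across probes was 0.997 within each group and 0.954 to 0.959 between groups, with genes not being independent replicates. All 4 arrays lay on a single slide, with the Pak1-/- label at positions 1 and 2 and the Pak1+/+ label at positions 3 and 4. Slide position therefore cannot be told apart from genotype. The probe of Pak1 itself read 12.21 and 12.25 (normalized log2 intensity) in the group labelled Pak1-/- against 12.04 and 12.04 in the group labelled Pak1+/+. That difference of 0.19 (SE 0.07) missed the threshold (limma adjusted p = 0.070) except under cyclic loess (0.27, adjusted p = 0.027). The Pak1 probe was thus no lower where the label says knockout, and its place relative to the deleted part of the gene is not known here, so every direction rests on the labels alone. Erbb2 was lower by 0.31 log2 (difference -0.31, SE 0.07, adjusted p = 0.020), a call lost without Pak1-/- replicate 1 and without either of the Pak1+/+ arrays.

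Markers of epithelial cells were bright on all arrays. Of 12 epithelial markers, 11 were well above background on all 4 arrays, and the keratin Krt8 read 18.69 and 18.68 against 18.09 and 18.14. Among markers of other cells, Lyz2 and Tyrobp (leukocytes), Col3a1, Dcn, Lum and Pdgfrb (fibroblasts), Tek and Cldn5 (endothelium) and Adipoq and Lep (adipocytes) were dim, that is not well above background, on each of the arrays. Others were not: 10 of 15 leukocyte, 5 of 11 fibroblast and 2 of 6 endothelial markers were well above background on all 4 arrays. Looked up after their values were seen, the brightest of these included Cd14 (15.50 and 15.72 against 17.35 and 17.25), Itgam (16.07 and 15.51 against 15.39 and 15.20), Kdr (13.21 and 13.13 against 12.99 and 13.27) and Tagln (12.68 and 12.86 against 12.99 and 12.94). Further probes of Itgam were far dimmer, with group means of 7.56 against 7.76 and of 7.94 against 7.37. So was a second probe of Kdr (7.99 against 6.62).

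The members are shown first through their probes and promoters. Each probe is 60 bases long, and all coordinates of probes are those of the files, on mm9. The single probe of Trp53 is printed. So is the dimmer probe of each gene that had a pair, since the comparison of paired probes turns on it. All were read from the scanner files, in the direction of the transcript.
Trp53 (chr11:69404204-69404263, plus strand): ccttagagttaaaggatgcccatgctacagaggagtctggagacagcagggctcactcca
Mdm4, dimmer probe (chr1:134888407-134888466, minus strand): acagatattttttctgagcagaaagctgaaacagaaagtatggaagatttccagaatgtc
Trp53inp1, dimmer probe (chr4:11092530-11092589, plus strand): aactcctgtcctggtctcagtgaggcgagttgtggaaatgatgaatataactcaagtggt

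The brightest probes lay at chr10:117126010-117126069 (Mdm2, minus strand), chr1:134886426-134886485 (Mdm4, minus), chr7:52717122-52717181 (Bax, minus), chr7:16903403-16903462 (Bbc3, plus), chr11:40562427-40562486 (Ccng1, minus), chr4:132048858-132048917 (Sesn2, minus), chr4:11101174-11101233 (Trp53inp1, plus) and chr3:32233831-32233890 (Zmat3, minus). The coordinates of the Pmaip1 probe are not printed here. No annotation on mm9 was used here, so exon and UTR positions are not given. In both genes with a pair, the brighter probe lay further along the direction of transcription, by 1981 bases of genome in Mdm4 and by 8644 bases in Trp53inp1.

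Promoter windows, from 250 bases before to 50 after a transcription start in RefSeq on GRCm38.p6, were searched for the p53 response element. A full element was taken as a pair of decameric half-sites, separated by 0 to 13 bases, with at most 2 mismatches in all and with the central C and G of each half-site kept. The half-site pattern reads the same on both strands. Windows were at hand for 7 of the 10 members (10 windows), all but Pmaip1, Trp53inp1 and Zmat3. Full elements were found in the windows of Bax and Ccng1, which are printed below on the strand of the gene with the half-sites in capitals.
Bax (chr7:45467070-45467134, GRCm38.p6, minus strand): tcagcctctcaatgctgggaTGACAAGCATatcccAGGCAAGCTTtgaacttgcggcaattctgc
Ccng1 (chr11:40755442-40755501, GRCm38.p6, minus strand): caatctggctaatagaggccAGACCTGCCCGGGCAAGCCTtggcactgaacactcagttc

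The Bax element (chr7:45467090-45467114) began 216 bases before the start, with a spacer of 5 bases and 2 mismatches. The Ccng1 element (chr11:40755462-40755481) began 195 bases before the start, without a spacer and with 1 mismatch. Over all 32851 windows of 27025 genes, 4.09% held a full element and 8.36% at least 1 half-site without a mismatch. Such a half-site was present in the windows of Trp53, Mdm2, Bax and Ccng1 and in none of those of Mdm4, Bbc3 and Sesn2. A match describes the letters in the window and does not show that p53 binds there, and elements outside the window, in introns for example, were not searched.

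The mRNA of Trp53 differed between the groups by less than the spread of the arrays, while most of the other members were higher in the arrays labelled Pak1-/-. All 12 probes were well above background on all 4 arrays, and none was saturated. Of the 10 genes, 7 were higher (Mdm2, Mdm4, Bax, Bbc3, Sesn2, Trp53inp1 and Zmat3), 1 was lower (Pmaip1) and 2 did not pass (Trp53 and Ccng1) at an adjusted p of 0.05 in limma. By probe, 10 of 12 passed. Differences between these groups were widespread: 50.9% of the 21341 genes and 51.9% of the 27229 probes tested passed, with 23.1% of the genes higher and 27.8% lower. The median log2 difference of the members was 0.55, against -0.05 over all genes. No overlap between the groups was seen for 8 of the 10 members and for 77.5% of all genes. In bulk RNA of this kind, a change in the share of a cell type and a change in RNA per cell cannot be told apart.

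**Figure D1:**
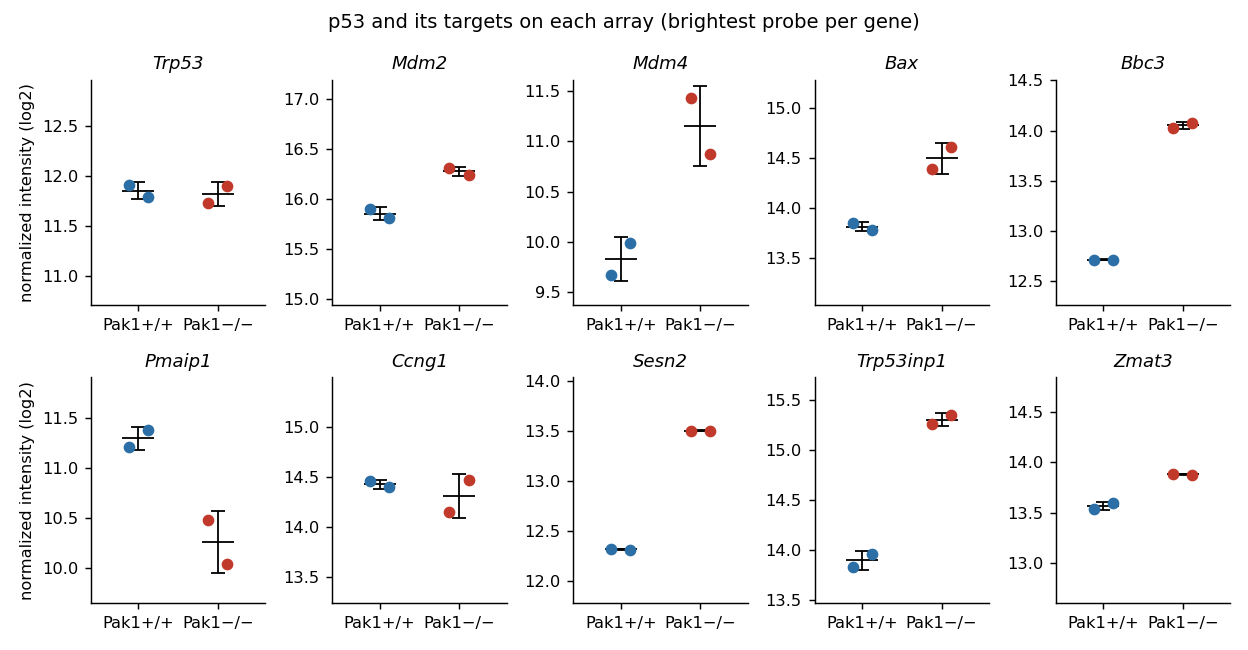
Normalized intensity (log2, 1 panel per gene, each axis spanning the same range) of the brightest probe of p53 and 9 genes of its circuit on the 2 arrays labelled Pak1+/+ (blue) and the 2 labelled Pak1-/- (red). Points are arrays, horizontal lines the group means and bars the SD (n = 2). The groups overlap for Trp53 and Ccng1, the arrays labelled Pak1-/- are lower for Pmaip1 and higher for the other 7 genes.

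Trp53 read 11.73 and 11.90 in the group labelled Pak1-/- and 11.91 and 11.79 in the group labelled Pak1+/+. The groups overlapped, with both groups spanning nearly the same range. The difference was -0.03 (SE 0.10, 95% interval -0.29 to 0.22, adjusted p = 0.789 in limma), so that a change of more than 0.29 log2 in either direction lies outside the interval. Its sign turned under cyclic loess (0.043), and the value ran from -0.12 to 0.05 when an array was left out. The gene Wrap53 lies next to Trp53 on the opposite strand. Its probe read 12.92 and 12.95 against 13.34 and 13.41, without overlap, and was lower by 0.44 log2 (difference -0.44, SE 0.07, adjusted p = 0.0075).

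The genes whose 4 values, each centred on its mean, lay nearest to those of Trp53 were Gm2695, Gm7902 and Peg12, at root mean square distances of 0.0066, 0.0076 and 0.0081 log2 over the 4 arrays. With a range this narrow, closeness shows only that these genes also varied little and in the same order.

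Mdm2 and Mdm4, the negative regulators of p53, were both higher in the arrays labelled Pak1-/-. Mdm2, the ubiquitin ligase for p53 and itself a classical p53 target, read 16.31 and 16.24 against 15.90 and 15.81. Both arrays of the first group were above both of the second. The difference was 0.42 (SE 0.08, interval 0.22 to 0.62), a 1.34-fold higher level (adjusted p = 0.0099). Its size depended on the scaling: on the processed signal scaled to the 75th percentile it was 0.26 and did not pass (adjusted p = 0.062), and without Pak1+/+ replicate 2 it was 0.38 (adjusted p = 0.059).

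Mdm4, which binds p53 and masks its activation domain, differed more by its brightest probe, with 11.44 and 10.87 against 9.67 and 9.98. The groups did not overlap, although the arrays labelled Pak1-/- were 0.56 log2 apart, the widest gap between replicates among the members. The difference was 1.32 (SE 0.22, interval 0.74 to 1.91), a 2.51-fold higher level (adjusted p = 0.0082), and it passed under each alternative tried, from 0.82 for the mean of both probes to 1.61. The dimmer probe, printed above, read 9.71 and 9.72 against 9.37 and 9.45. It was higher by only 0.31 (SE 0.07, adjusted p = 0.0213), and this call was lost when any of the 4 arrays was left out (adjusted p up to 0.12). The pair of Mdm4 probes thus gave the same direction with sizes of 1.32 and 0.31, outside each other's 95% intervals (0.74 to 1.91 and 0.12 to 0.49). The difference between the probes was not tested.

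The genes of the mitochondrial death pathway did not move together. Bax, the effector that permeabilises the outer mitochondrial membrane, read 14.39 and 14.61 against 13.85 and 13.79. It was higher by 0.68 without overlap (SE 0.10, interval 0.42 to 0.94, 1.60-fold, adjusted p = 0.0054). Bbc3, also called Puma, is a BH3-only protein that activates Bax-like effectors. Its probe read 14.03 and 14.08 against 12.71 and 12.71, with gaps of at most 0.047 log2 between replicates. The level was 2.53-fold higher (difference 1.34, SE 0.07, interval 1.16 to 1.52, adjusted p = 0.00033), and alternatives kept it between 1.29 and 1.43.

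Pmaip1, also called Noxa, is the other BH3-only member and moved the opposite way. It read 10.48 and 10.04 under the Pak1-/- label and 11.21 and 11.38 under the Pak1+/+ label. All values of the first group were below those of the second. The difference was -1.03 (SE 0.17, interval -1.48 to -0.59, adjusted p = 0.0075), which is 2.05-fold lower, and it passed under each alternative tried (from -1.26 to -0.81). Of the members it was the only gene past the threshold in this direction.

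**Figure D2:**
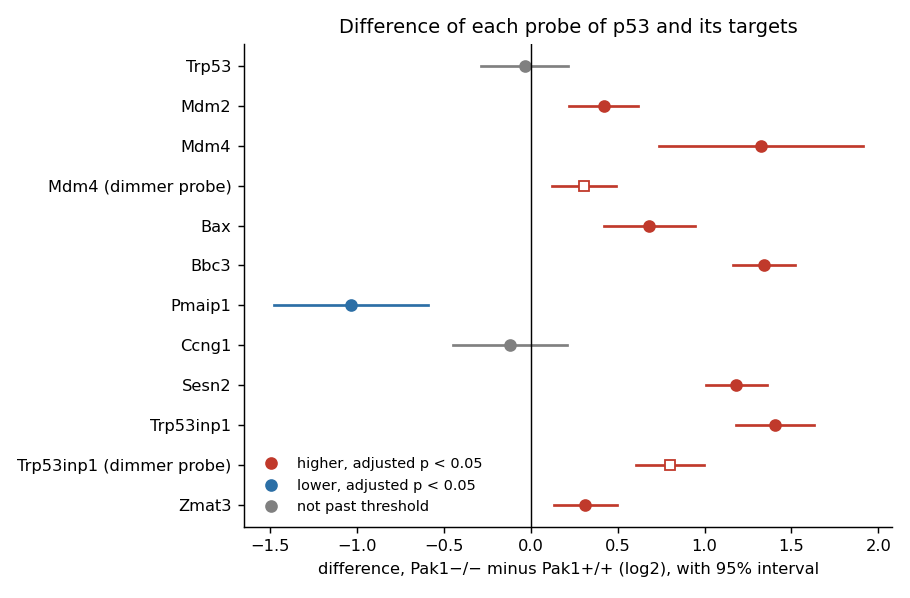
Log2 difference, Pak1-/- minus Pak1+/+, of each of the 12 probes of p53 and its circuit, with its 95% interval from limma (n = 2 arrays per group). Filled circles are brightest probes, open squares the dimmer probes of Mdm4 and Trp53inp1, red marks higher, blue lower and grey not past an adjusted p of 0.05. Trp53 (-0.03) and Ccng1 (-0.12) span 0, Pmaip1 (-1.03) lies below it and the others lie above, up to 1.40 for Trp53inp1.

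Of the targets outside the death pathway, Sesn2 and Trp53inp1 were more than 2-fold higher, Zmat3 was slightly higher and Ccng1 did not pass. Sesn2, a stress-induced inhibitor of mTORC1 signalling, read 13.50 and 13.50 against 12.32 and 12.32. Replicates were within 0.0065 log2 of each other, and the groups were 1.18 apart (SE 0.07, interval 1.01 to 1.36, 2.27-fold, adjusted p = 0.00043). Trp53inp1, a nuclear protein that promotes p53-dependent arrest and death and also takes part in autophagy, read 15.25 and 15.34 against 13.83 and 13.96. This was the largest difference among the members by the brightest probe, 1.40 (SE 0.09, interval 1.18 to 1.63, 2.64-fold, adjusted p = 0.00053). The dimmer Trp53inp1 probe, 8644 bases upstream in the genome, gave 11.23 and 11.30 against 10.42 and 10.50. It was also higher without overlap, by 0.80 (SE 0.07, 1.74-fold, adjusted p = 0.0015).

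Zmat3, also called Wig1, a zinc finger protein that binds double-stranded RNA, read 13.89 and 13.88 against 13.54 and 13.59. The groups did not overlap, and the difference of 0.31 (SE 0.07, interval 0.13 to 0.50, 1.24-fold) passed at an adjusted p of 0.0181. It missed the threshold on the processed signal (0.25, adjusted p = 0.061) and without any 1 of the 4 arrays (adjusted p from 0.052 to 0.105). Ccng1, encoding cyclin G1, which recruits a phosphatase to Mdm2, read 14.15 and 14.47 against 14.46 and 14.40. Here the arrays labelled Pak1-/- differed by 0.31 log2 and enclosed those labelled Pak1+/+, and the difference of -0.12 (SE 0.12, interval -0.45 to 0.21) did not pass (adjusted p = 0.46). It ran from -0.28 to 0.04 when an array was left out.

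The sizes of the members' differences can be placed among those of all genes. Bbc3, Mdm4, Sesn2 and Trp53inp1 differed by more than 90.3% to 92.9% of the genes tested, Pmaip1 by more than 87.6% and Bax by more than 76.1%. Mdm2 and Zmat3 lay near the middle, above 59.2% and 49.2%, and Ccng1 and Trp53 above 21.7% and 6.47%. Of the members, 5 were past the threshold with at least a 2-fold difference (Mdm4, Bbc3, Sesn2 and Trp53inp1 higher, Pmaip1 lower), against 12.8% of all genes. These places rest on the brightest probes. By their dimmer probes, Mdm4 (1.24-fold) and Trp53inp1 (1.74-fold) stayed below 2-fold.

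**Figure D3:**
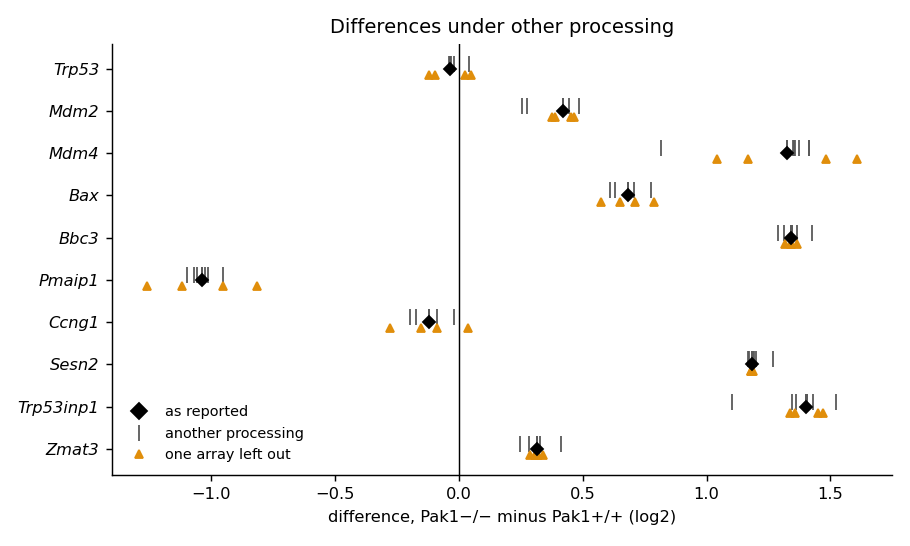
Log2 difference, Pak1-/- minus Pak1+/+, of the brightest probe of each member as reported (diamonds), under 11 other ways of processing that used all 4 arrays (vertical marks) and with 1 array left out (triangles). Trp53 (-0.12 to 0.05) and Ccng1 (-0.28 to 0.04) fall on both sides of 0, while the other 8 genes keep their sign. The filters, the prior and the replicate block cannot move a difference, nor can the probe mean for genes with 1 probe.

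Other genes known as p53 targets were examined as a list of 60, of which 58 were tested and Eda2r and Cyfip2 were dim on all 4 arrays. This list, too, was chosen with earlier results of these data known. In the arrays labelled Pak1-/-, 30 were higher (51.7%), 6 were lower (10.3%) and 22 did not pass, against 23.1% higher and 27.8% lower of all genes. Their median difference was 0.35 (0.27 with the genes that were dim in 1 group at their bound), against -0.05 over all genes, and 46 of the 58 did not overlap, close to the 77.5% of all genes. The 12 largest differences past the threshold of at least 1 log2 were all higher, and 11 of these genes are described here by role.

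Several restrain the cell cycle. Rprm (Reprimo), which arrests cells in G2, read 10.50 and 10.66 against 6.80 and 6.72, and was not well above background on the arrays labelled Pak1+/+. It was at least 12.7-fold higher (adjusted p = 7.1e-05). Ptprv, a tyrosine phosphatase linked to G1 arrest, read 11.04 and 10.85 against 7.45 and 7.58 (difference 3.43, adjusted p = 0.00011), and its second probe, dim under the Pak1+/+ label, was at least 2.97-fold higher. Ccng2, a cyclin of quiescent cells, read 9.97 and 10.10 against 8.59 and 8.68 (difference 1.40, adjusted p = 0.00051).

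Cdkn1a, the CDK inhibitor p21 and the best known arrest gene of p53, was not among them. Its probe gave 15.04 and 15.33 under the Pak1-/- label and 14.96 and 14.92 under the Pak1+/+ label. The groups did not overlap, but the difference of 0.24 (SE 0.12) did not pass (adjusted p = 0.148). It passed under cyclic loess (0.36, adjusted p = 0.048) and without Pak1-/- replicate 1 (0.39, adjusted p = 0.037), and the second probe of Cdkn1a differed by -0.02 (adjusted p = 0.87).

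Secreted and membrane proteins formed another share of the large differences. Gdf15, a stress-induced cytokine, read 9.91 and 10.51 against 6.83 and 7.04, where it was not well above background, and was at least 9.68-fold higher (adjusted p = 0.00068). Fas, a death receptor, read 13.36 and 13.18 against 11.68 and 11.87 (difference 1.49, adjusted p = 0.00082). Tap1, the peptide transporter for antigen presentation, read 11.75 and 11.88 against 9.35 and 9.38 (difference 2.46, adjusted p = 0.00012), and it is also known as an interferon-induced gene.

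Among the remaining large differences, Sesn3, a relative of Sesn2, read 13.43 and 13.22 against 11.32 and 11.75 (difference 1.79, adjusted p = 0.0016). Sesn1, the third gene of that family, differed by -0.10 and did not pass (adjusted p = 0.36). Mgmt, the methyltransferase that repairs alkylated guanine, was at least 4.54-fold higher (9.09 and 9.02 against 6.31 and 6.39, not well above background in the latter). Trp53i11 (difference 1.71, second probe 1.74), the adenylate kinase Ak1 (1.51) and the lipase Abhd4 (1.10) were also higher.

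Of the 6 lower targets, 5 were looked up after their values were seen. Bcl2l1, which encodes the survival protein Bcl-xL, fell by 0.88 log2 (adjusted p = 0.00096), and its second probe differed by -0.98. Ppm1d, the Wip1 phosphatase that switches off p53 (-0.51), and Ddb2, a damage sensor of nucleotide excision repair (-0.43), were lower as well, the call of Ddb2 being lost without Pak1+/+ replicate 1 (-0.42, adjusted p = 0.054). Ckap2, a microtubule-associated protein, and Pidd1, a death domain scaffold, were lower by small amounts (-0.34 each), and these calls were lost under 12 (Pidd1) and 4 (Ckap2) of 15 alternatives.

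**Figure D4:**
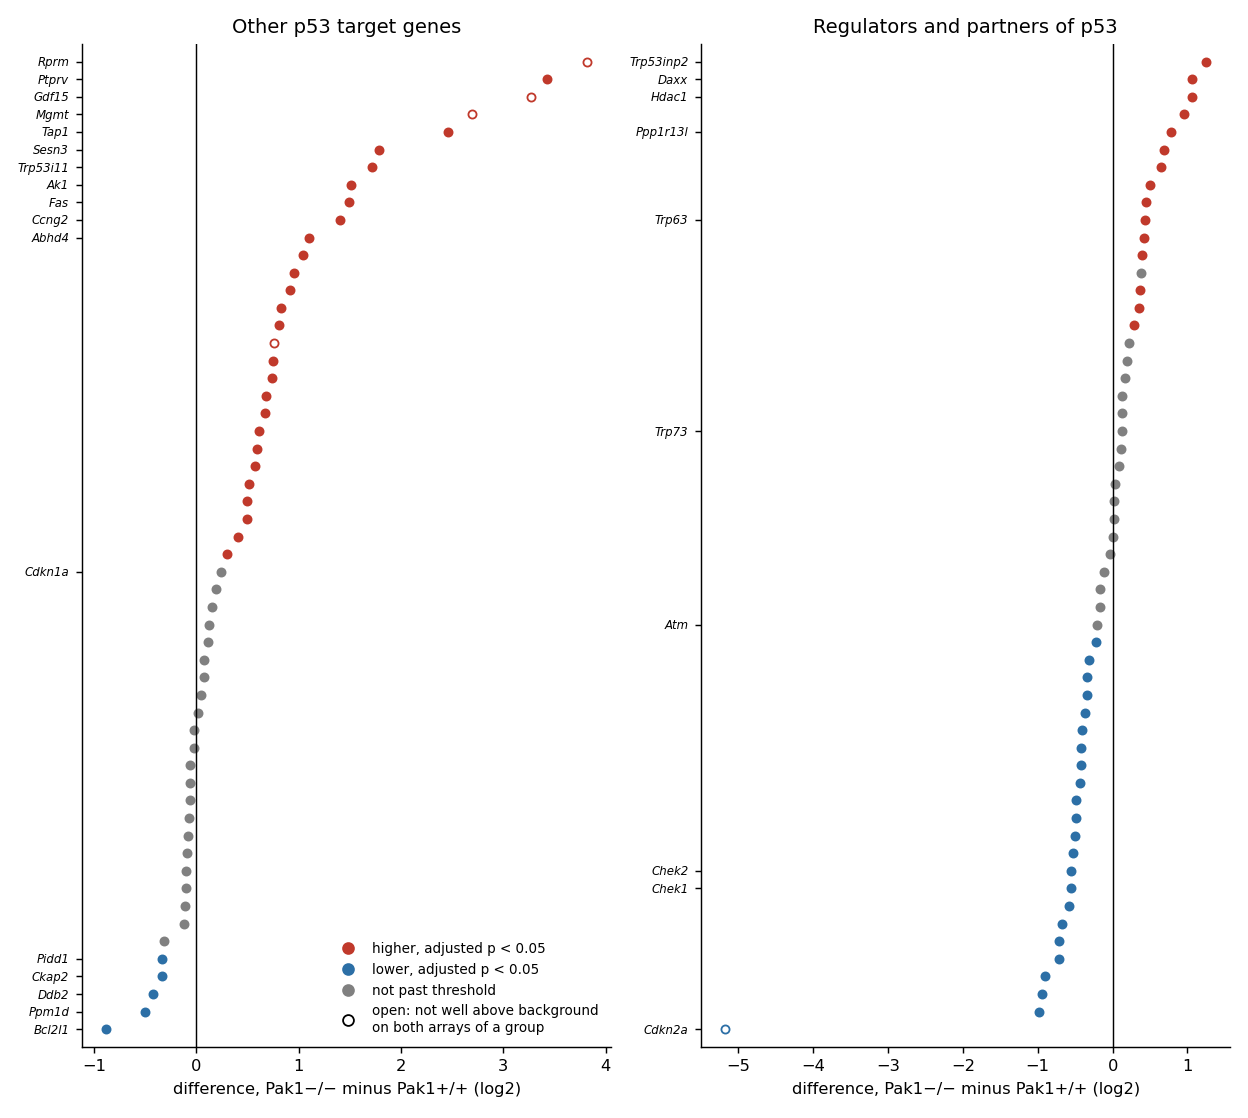
Log2 difference, Pak1-/- minus Pak1+/+, of the brightest probe of 56 other p53 targets (left) and 56 regulators or partners of p53 (right), ordered by size, with most of the genes named in the text labelled. Red marks higher, blue lower and grey not past an adjusted p of 0.05 in limma, and open circles mark genes that were dim on both arrays of 1 group. Among the targets drawn, 29 were higher and 5 lower, among the regulators 15 and 23, and Cdkn2a, dim on both arrays labelled Pak1-/- and at least 26.0-fold lower there, stands far to the left.

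Genes that act on p53 or with it gave a more even picture. In the arrays labelled Pak1-/-, 15 of 56 tested were higher (26.8%) and 23 lower (41.1%), against 23.1% and 27.8% of all genes. The median difference was -0.01, and 51 of the 56 did not overlap, against 77.5% of all genes. The number lower was 12 without Pak1+/+ replicate 1 and 15 without Pak1+/+ replicate 2. The largest difference by far was that of Cdkn2a, the locus of p16Ink4a and of p19Arf, which holds Mdm2 away from p53. Its probe read 6.08 and 6.21 under the Pak1-/- label, where it was dim, and 11.20 and 11.44 under the Pak1+/+ label. It was at least 26.0-fold lower (adjusted p = 6.2e-05), and its second probe, dim under the same label, at least 2.95-fold lower (adjusted p = 0.00032). Which of the products the probes measure was not determined here.

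The other regulators past 2-fold were higher: Trp53inp2 (15.06 and 14.99 against 13.80 and 13.75, difference 1.25), a relative of Trp53inp1 that acts in autophagy, the chaperone Daxx (1.07) and the deacetylase Hdac1 (1.06, with 0.73 and 0.84 by its further probes). The relatives of p53, the kinases and Ppp1r13l that follow, and Sesn1 above, were looked up after the values were seen. Trp63, which marks basal epithelial cells, was higher by 0.43 (adjusted p = 0.019) by its brightest probe, a call lost without Pak1-/- replicate 1 (adjusted p = 0.077) and without Pak1+/+ replicate 2 (adjusted p = 0.089). A further Trp63 probe, dim under the Pak1+/+ label, was at least 1.45-fold higher (adjusted p = 0.0054). Trp73 differed by 0.12 and did not pass (adjusted p = 0.25). Of the kinases that signal damage to p53, Chek1, Chek2 and Atr were lower (-0.56, -0.55 and -0.59), while Atm (-0.21, adjusted p = 0.063) and Prkdc (0.12, adjusted p = 0.20) did not pass. The Chek2 call was lost under 3 of 15 alternatives, without Pak1-/- replicate 1 (-0.39, adjusted p = 0.058), Pak1+/+ replicate 1 (-0.49, adjusted p = 0.090) or Pak1+/+ replicate 2 (-0.62, adjusted p = 0.051). Ppp1r13l, the iASPP inhibitor of p53, was higher by 0.78 (adjusted p = 0.002).

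Further gene groups moved between the same arrays. Of 28 cell cycle genes tested, among them targets of the DREAM repressor that acts downstream of p53 and p21, none was higher and 24 were lower (85.7%, median -0.88), against 23.1% higher and 27.8% lower of all genes (median -0.05), with Rrm2 at -1.84, Foxm1 at -1.32 and Cdc25c at -1.25. Against the same shares of all genes, all 22 interferon response genes were higher (median 4.82), led by Oas2 (8.01), Ifit3 (7.66) and Ifit1 (7.25). The summed intensity of the interferon genes was 20.18 and 20.06 (log2) under the Pak1-/- label and 15.83 and 16.03 under the Pak1+/+ label, and that of the cell cycle genes 18.90 and 19.07 against 19.84 and 19.79. The part of either group in the values of the p53 genes was not tested.

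Markers of cell types were counted in the same way, beside 50.9% of all genes past the threshold. Of 15 leukocyte markers 10 were tested, none was higher and 5 were lower, Cd14 by the most (-1.70), with summed levels of 16.99 and 16.82 against 17.79 and 17.68. Of 11 fibroblast markers 6 were tested and 2 were higher (Acta2 by 1.69 and Col1a1 by 1.12), with summed levels of 13.26 and 13.29 against 13.34 and 13.22. None of the 4 endothelial markers tested of 6 passed by its brightest probe (summed levels of 13.36 and 13.31 against 13.18 and 13.43), while a second probe of Kdr, dim under the Pak1+/+ label, was at least 2.17-fold higher (adjusted p = 0.00046), and none of the 5 adipocyte markers was bright enough to be tested (summed levels of 8.88 and 8.88 against 9.03 and 9.02). Of the 12 epithelial markers 6 were higher and 2 lower, with summed levels of 20.23 and 20.23 against 20.02 and 20.01. The brightest genes carry such a sum, and single epithelial markers differed as much as the members or more: the basal keratin Krt14 was higher by 2.83 and Cdh1 (E-cadherin) by 1.19, and Krt7 was lower (-1.10). Their part in the values of the p53 genes was not tested.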

How the data were processed

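Total RNA was labelled with Cy3 and hybridized to single-colour Agilent mouse arrays. The authors deposited scanner files of linear spot intensity, made with Feature Extraction 9.5.3.1 per the file headers and not normalized between arrays, and a log2 table (normexp and quantile normalized per their methods), used as an alternative. From the scanner files, background was corrected with normexp (offset 50) on all spots, 1377 control probes were left out, and values were put on the log2 scale, quantile normalized and averaged per probe. Outlier-marked spots were set aside, none of them in a member. The filter kept the 27229 probes (69.1%) that stood well above background on 2 or more arrays. Genotype was tested with lmFit and eBayes of limma 3.58.1 in R 4.3.3 (moderated, two-sided), with Benjamini-Hochberg adjustment over all probes kept and a threshold of 0.05; 14132 (51.9%) passed. There were 2 residual degrees of freedom and a prior of 2.62. The sources give no offset, filter or adjusted threshold, and those used were chosen here. An offset of 50 understates changes of dim probes, and the number of arrays limits the precision. An exact permutation test of 2 arrays against 2 cannot go below 0.333 and was not used.

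Where both arrays of a group were dim for a probe (not well above background), only a bound is given ("at least N-fold"): the bright group's mean was set against the dim group's mean, with each dim array raised, where needed, to its lowest value that was well above background. Probes were named through their RefSeq accession where it matched (26055 of 32334), otherwise by the file. The members and gene lists were chosen with earlier results of these data known. Named genes were all members, Pak1, Erbb2, Cdkn1a, the up to 12 largest differences of at least 1 log2 past the threshold in each of the lists of targets and regulators, the 3 genes nearest to Trp53, and up to 3 of each other list, with exceptions stated in the text. Of the list of targets, 2 genes are counted but not reported here by name or drawn. The test was tried on simulated data of 27215 probes. It called 42% of probes raised by 1 log2, 76% of those raised by 2 and 0% of those raised by 0.5. Of those lowered by 1 log2, it called 38%. These shares need not carry over to the arrays, where smaller differences passed (Mdm2 at 0.42, Zmat3 at 0.31). Alternatives were another background correction, scaling, offset, filter, probe rule, prior, threshold, the deposited log2 table, a replicate block and leaving out each array. Human samples of the study were not analysed here. Promoters and motif matches were read with Python 3.11.15.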

Additional observations from a re-analysis of the deposited data

How the results depend on the processing

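Mdm4, Bax, Bbc3, Pmaip1, Sesn2 and Trp53inp1 kept direction and passed an adjusted p of 0.05 under all alternatives of processing and samples tried. A 2-fold requirement would leave out Bax (1.60-fold). On the processed signal scaled to the 75th percentile, Mdm2 was 0.26 (adjusted p = 0.062) and Zmat3 0.25 (adjusted p = 0.061), leaving 5 members higher. Trp53 turned to 0.043 under cyclic loess, where 52.4% of the probes past the threshold were higher, against 44.9% as reported. Leaving out 1 array gave -0.12 to 0.051 for Trp53, -0.28 to 0.037 for Ccng1, 0.38 to 0.46 for Mdm2 and 0.29 to 0.34 for Zmat3, 5 to 6 members higher, 12 to 20 regulators lower, and 10312 to 12168 probes past the threshold. The lone array of a group was then assumed to vary like the other group.

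An adjusted p of 0.01 left 6 members higher, 9 regulators higher and 13 lower, 3 other targets lower and 8878 probes. Requiring 2-fold as well left 4 members higher, 13 targets higher and 0 lower, 3 regulators higher and 1 lower, and 3413 probes. At that requirement the 0 stands beside the 6 targets lower in limma without it. The causes were not tested. Replicate numbers did not pair the samples (correlation of deviations -0.028). With the replicate block, 7 members were higher and 1 lower, 30 and 5 other targets, 15 and 20 regulators, and 13211 probes passed. Signal over background limited no member, but Rprm, Gdf15, Mgmt, Igfbp3 and Cdkn2a have only bounds in 1 group.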
